A study of Mus musculus with 8 samples.

Results

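The 10 genes described here let cells tolerate or remove DNA lesions, and were measured in mouse embryos exposed to hydroxyurea. They were chosen by symbol, with earlier results of these data known, as 10 of the 20145 named genes on the array. Of them, 6 belong to translesion synthesis (Polk, Polh, Poli, Rev1, Rev3l and Rad18) and 4 to nucleotide excision repair (Xpc, Ddb2, Ercc5 and Xpa). They had 13 of its 55681 probes, each matched through its RefSeq accession. Polk, Rad18 and Xpa had 2 probes each. All 13 probes passed the filter on dim signals, under which 4 or more of the 8 arrays must show a signal well above background.

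Each sample was RNA of whole embryos from outbred CD-1 mice at gestational day 9, a stage of early organ formation. Dams received hydroxyurea at 400 mg/kg or saline by intraperitoneal injection, and the embryos were taken after 3 h. Cy3-labelled material from the total RNA of 4 hydroxyurea and 4 saline samples was hybridised to 1-colour Agilent arrays. The arrays are numbered here 1 to 4 within each group in the order of the samples. Equal numbers do not mark matched samples. Independent experiments are mentioned in the labels, but no sample is tied to a dam, a litter or another sample, so p-values measure only the spread between these samples, which may be technical. The same RNA level can come from fewer cells or from less RNA per cell, and in whole embryos these cannot be told apart.

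When a replication fork meets a damaged base, the replicative polymerases stall. The ubiquitin ligase RAD18 then marks the sliding clamp PCNA, and Y-family polymerases with open active sites (kappa, eta, iota and REV1) copy across the lesion. REV1 also holds the other polymerases in place, and polymerase zeta, whose catalytic subunit is REV3L, extends the new end. Nucleotide excision repair removes bulky lesions: XPC and the DDB2 complex find them, XPA checks and positions them, and the nuclease XPG, encoded by Ercc5, cuts on the 3′ side. The series' title names p53 signalling, but whether p53 controls any of these genes in these embryos was not tested. Hydroxyurea inhibits ribonucleotide reductase and so starves forks of deoxyribonucleotides.

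Of the 10 genes, 3 were higher in hydroxyurea embryos (Polk, Rev1 and Ercc5) and 0 were lower (limma, adjusted p below 0.05). Before adjustment 1 gene, Polh, was lower at that level, as were 12.4% of all features and 1236 of the 14631 named genes. Over all 23121 genes and unnamed features tested, 2.78% were called higher and 3.4% lower, 6.18% in either direction. Among the named genes alone these shares were 3.64% higher and 2.03% lower. The 10 genes were chosen with earlier results of these data known, so their counts beside these shares are not a test. The 4 hydroxyurea arrays all lay above the 4 saline arrays for the same 3 genes, as they did for 7.85% of all features, and no member had the opposite separation (7.63% of all features). The median log2 difference of the 10 genes was 0.25, beside 0.04 over all features and 0.10 over the 14631 named genes. Signals below are log2 values relative to the array's 75th percentile, which is set to 0, and differences are hydroxyurea minus saline on that scale.

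**Figure D1:**
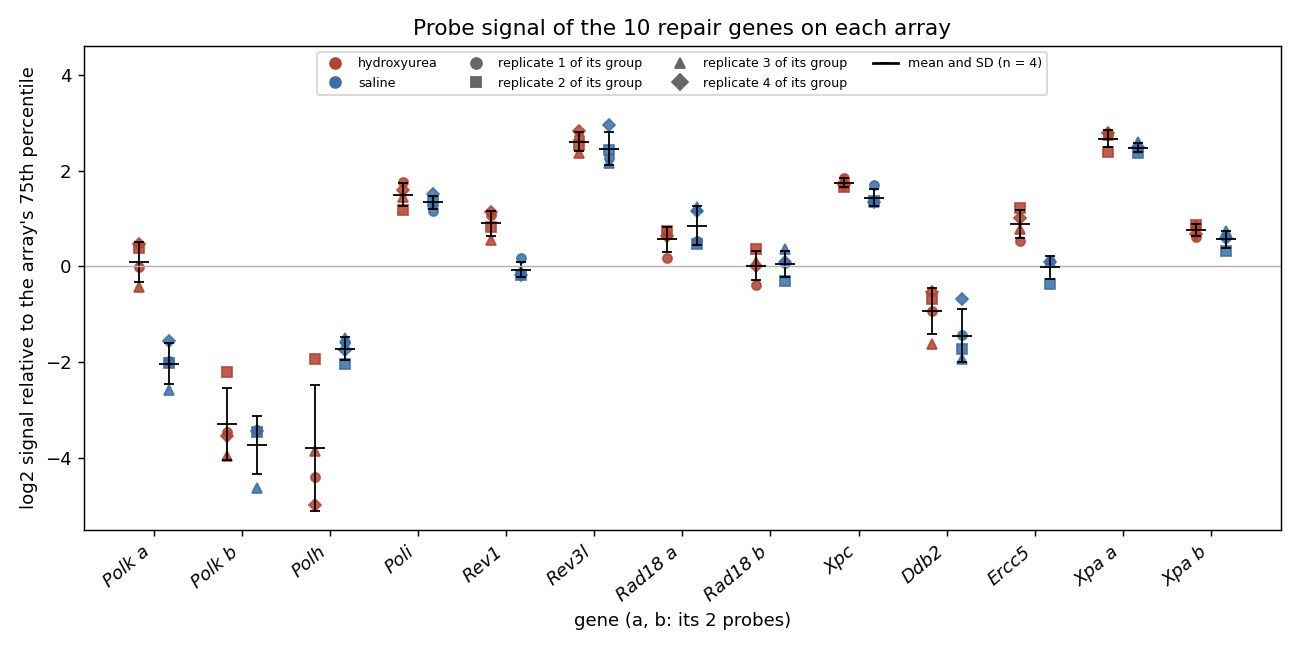
Log2 signal of the 13 probes on each of the 8 arrays, relative to the array's 75th percentile, with hydroxyurea to the left of saline in each pair; bars are the mean and SD of 4 arrays, and a and b are the probe that stands for a gene and its other probe. The hydroxyurea points of Polk a, Rev1 and Ercc5 all lie above the saline points, and for Polh 3 hydroxyurea points lie far below them.

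Polk, which encodes DNA polymerase kappa, a Y-family enzyme that copies past bulky adducts of guanine, had the largest rise among the 10 genes. Its brighter probe read -0.02, 0.37, -0.44 and 0.47 on hydroxyurea arrays 1 to 4, against -1.96, -2.02, -2.58 and -1.55 on saline arrays 1 to 4. The lowest hydroxyurea array was thus above the highest saline array by more than the SD within either group (0.42 each). The difference was 2.13 ± 0.27 (SE, n = 4 per group, limma adjusted p = 0.0029), a 4.36-fold rise with a 95% interval of 2.88 to 6.61. The call held without any single array, with adjusted p-values between 0.0031 and 0.013, and in each of 9 other ways of processing.

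The other Polk probe, which carries the same RefSeq accession, gave a different picture. It was dim: it read -3.45, -2.20, -3.96 and -3.53 in hydroxyurea and -3.41, -3.45, -4.63 and -3.43 in saline embryos, and was not well above background on hydroxyurea 3 and saline 3. The groups overlapped, and the difference of 0.45 ± 0.41 did not pass (adjusted p = 0.54 in a fit of 30677 probes, of which 2.53% were called higher and 4.3% lower). With the mean of both probes Polk still passed, at 1.29 (adjusted p = 0.045). The array files do not say which exons the probes sit on.

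Rev1, which encodes a deoxycytidyl transferase that is also the scaffold of translesion synthesis, read 1.08, 0.83, 0.56 and 1.13 on hydroxyurea arrays 1 to 4. On saline arrays 1 to 4 it read 0.17, -0.17, -0.10 and -0.17. Every hydroxyurea array was above every saline array, with hydroxyurea 3 the lowest of its group and saline 1 the highest of the other. The rise was 1.95-fold, with a 95% interval of 1.49 to 2.55 (adjusted p = 0.014). Without hydroxyurea 4 it missed the threshold (adjusted p = 0.053).

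Ercc5, whose product XPG makes the 3′ incision of nucleotide excision repair, read 0.54, 1.23, 0.78 and 1.0 on hydroxyurea arrays 1 to 4. On saline arrays 1 to 4 it read 0.11, -0.37, 0.10 and 0.09, so that saline 2 lay below the other 3. The groups did not overlap, and the difference was 0.90 ± 0.19 (SE, n = 4 per group, limma adjusted p = 0.028), a 1.87-fold rise with a 95% interval of 1.38 to 2.53. This call was the least firm of the 3: it held without hydroxyurea 1 or hydroxyurea 2 and was lost without any other array (adjusted p up to 0.093), and with no filter on dim probes (adjusted p = 0.084). Without each array the difference stayed between 0.79 and 1.02. Where leaving out an array lost the call, calls over all features fell from 1429 to between 524 and 982. They also fell, to 609, without hydroxyurea 1, where it held. The probes of Polk (the brighter), Rev1 and Ercc5 were also the only 3 of the 13 in the authors' deposited table of 1346 differentially expressed probes, where their differences were 2.12, 0.96 and 0.90 on the authors' log2 scale. That table comes from the same 8 arrays and is not independent of the fit.

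**Figure D2:**
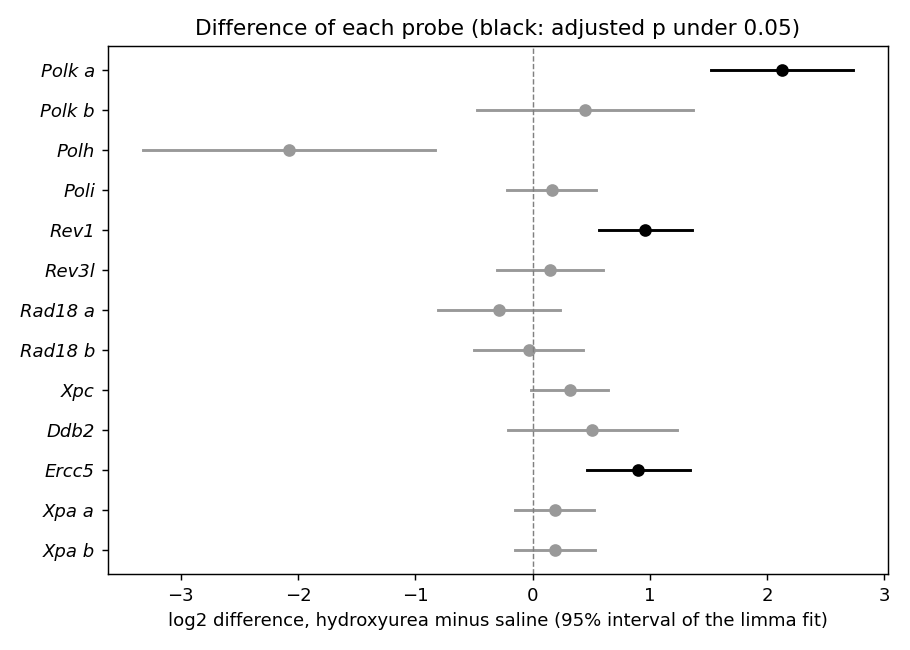
Log2 difference of each of the 13 probes, hydroxyurea minus saline, with the 95% interval of the limma fit over all probes; black marks an adjusted p under 0.05 and the dashed line is no difference. The intervals of Polk a, Rev1 and Ercc5 lie above 0, that of Polh lies below 0 but did not pass after adjustment, and the others cross 0.

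The available upstream sequence of these 3 genes is shown because they rose together, beside that of Polh, which had the opposite sign. RefSeq (GRCm38.p6, the C57BL/6J genome and not that of CD-1) gave promoters for 6 of the 10 genes: Polk and Rad18 with 2 starts each, and Polh, Rev1, Ercc5 and Xpa. The 250 bases before each start were searched on both strands for the p53 response element half-site, the GC box GGGCGG and the CCAAT box CCAAT. Capitals mark a match, and CCGCCC is the GC box read on the other strand.
Polk, upstream start, chr13:96542580-96542829, minus strand: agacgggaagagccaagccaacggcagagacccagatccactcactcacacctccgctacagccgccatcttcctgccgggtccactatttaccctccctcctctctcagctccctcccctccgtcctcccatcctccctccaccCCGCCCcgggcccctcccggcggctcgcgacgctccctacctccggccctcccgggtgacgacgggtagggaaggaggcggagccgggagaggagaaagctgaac
Polk, inner start, chr13:96519188-96519437, minus strand: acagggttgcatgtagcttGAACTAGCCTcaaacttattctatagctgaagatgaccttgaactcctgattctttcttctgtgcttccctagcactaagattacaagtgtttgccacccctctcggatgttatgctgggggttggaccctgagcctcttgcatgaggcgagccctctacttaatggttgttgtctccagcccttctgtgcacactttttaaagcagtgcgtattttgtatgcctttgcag
Rev1, chr1:38129667-38129916, minus strand: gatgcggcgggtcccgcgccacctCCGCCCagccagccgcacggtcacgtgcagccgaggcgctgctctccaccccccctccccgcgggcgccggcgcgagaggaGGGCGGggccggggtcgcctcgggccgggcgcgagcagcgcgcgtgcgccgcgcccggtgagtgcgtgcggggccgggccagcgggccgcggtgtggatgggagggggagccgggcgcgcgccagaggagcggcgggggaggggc
Ercc5, chr1:44147494-44147743, plus strand: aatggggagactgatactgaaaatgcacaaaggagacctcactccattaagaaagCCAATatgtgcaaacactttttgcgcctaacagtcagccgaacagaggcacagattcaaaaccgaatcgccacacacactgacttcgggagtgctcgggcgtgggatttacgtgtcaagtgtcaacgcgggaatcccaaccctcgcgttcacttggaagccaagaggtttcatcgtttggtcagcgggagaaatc
Polh, chr17:46202642-46202891, minus strand: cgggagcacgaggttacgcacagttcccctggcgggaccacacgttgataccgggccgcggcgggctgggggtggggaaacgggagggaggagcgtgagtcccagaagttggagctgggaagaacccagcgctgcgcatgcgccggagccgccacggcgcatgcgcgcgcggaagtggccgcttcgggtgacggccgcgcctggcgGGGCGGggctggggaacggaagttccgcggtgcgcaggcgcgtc

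A p53 half-site was found only before the inner start of Polk, 231 to 222 bases upstream, and 7.13% of all 32851 promoters in the table held such a match. GC boxes lay before the upstream start of Polk, before Rev1 (2 of them) and before Polh, and 32.7% of all promoters held one. A CCAAT box lay before Ercc5 and before Xpa (33.8% of all promoters). The 3 genes that rose shared no searched motif. Their upstream windows also differed in base composition, with 83.6% G and C for Rev1, 68% and 46.8% for the upstream and inner start of Polk, and 50% for Ercc5, beside 73.2% for Polh. Binding was not measured, and a match of letters says nothing about it.

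Polh, which encodes polymerase eta, the Y-family enzyme that copies past ultraviolet photoproducts, had the largest difference in the other direction and did not pass. It read -4.39, -1.94, -3.85 and -4.98 on hydroxyurea arrays 1 to 4, against -1.58, -2.04, -1.49 and -1.75 on saline arrays 1 to 4. Hydroxyurea 1, 3 and 4 lay far below all saline arrays, while hydroxyurea 2 lay among them. The probe was not well above background on hydroxyurea 3 and hydroxyurea 4, so the level there is only a bound. The difference was -2.08 ± 0.55 (SE, n = 4 per group, limma adjusted p = 0.058, or 0.237-fold with a 95% interval of 0.101 to 0.558).

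The call of Polh depended on hydroxyurea 2 and on the processing. Leaving hydroxyurea 2 out also raised the share of all features called lower from 3.4% to 7.64%. Without that array the difference was -2.69 and passed (adjusted p = 0.0023), with 2 of the 3 hydroxyurea arrays left not well above background, while without any other array it did not (adjusted p between 0.099 and 0.15). It passed in 2 of the 8 other ways of processing that kept its probe, median centring (adjusted p = 0.032) and a trend in the variance (0.049). In the rest it did not pass (adjusted p up to 0.13). With normexp, another background correction, the difference was -0.69 and did not pass (adjusted p = 0.10). An offset of 50 was added to the signals there, which compresses differences between dim signals. It was -1.36 on slide 1, which held hydroxyurea 2, and -2.80 on slide 2.

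The other 3 genes of translesion synthesis did not pass, and their groups overlapped. Poli, which encodes polymerase iota, the closest relative of eta, read 1.76, 1.18, 1.46 and 1.59 in hydroxyurea and 1.16, 1.38, 1.30 and 1.5 in saline embryos. Hydroxyurea 2 was thus below all saline arrays but the lowest. The 95% interval of its ratio, 0.864- to 1.45-fold, has its upper end below the estimate for Rev1. Rev3l, of polymerase zeta, read between 2.37 and 2.82 in hydroxyurea and between 2.17 and 2.95 in saline embryos, with a ratio of 1.11-fold (95% interval 0.812 to 1.51).

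Rad18, the ligase that starts translesion synthesis at PCNA, was measured by 2 probes with different RefSeq accessions. The brighter read 0.17, 0.73, 0.73 and 0.63 in hydroxyurea and 0.54, 0.46, 1.24 and 1.15 in saline embryos, a ratio of 0.821-fold (95% interval 0.575 to 1.17). The saline arrays of slide 2 (3 and 4) were the highest of all 8, and the difference was -0.05 on slide 1 and -0.52 on slide 2. The other probe gave -0.03 ± 0.21, and 0.08 with median centring, so the sign was not the same under every scaling.

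The 3 remaining genes of nucleotide excision repair all had differences above 0 that did not pass. Xpc, the damage sensor of global genome repair, read 1.84, 1.65, 1.81 and 1.70 in hydroxyurea and 1.69, 1.36, 1.34 and 1.34 in saline embryos. Saline 1 alone lay among the hydroxyurea arrays, and the other 3 saline arrays lay below all of them. The difference was 0.32 ± 0.14 (SE, n = 4 per group, limma adjusted p = 0.21), or 1.25-fold with a 95% interval of 0.997 to 1.56. It did not pass without saline 1 either (0.40, adjusted p = 0.18).

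Ddb2, which encodes the subunit that recognises ultraviolet damage in chromatin, spread widely in both groups. It read -0.92, -0.68, -1.62 and -0.53 in hydroxyurea and -1.44, -1.72, -1.94 and -0.68 in saline embryos. Hydroxyurea 3 lay among the lower saline arrays, and saline 4 among the higher hydroxyurea arrays. The estimate of 0.51 ± 0.32 (adjusted p = 0.35) was larger than that of Xpc but less certain, and its 95% interval of 0.869- to 2.33-fold includes rises of the size seen for Rev1 and Ercc5.

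Xpa, which encodes the scaffold that verifies the lesion, gave nearly the same result with each of its probes, at 0.19 ± 0.15 for both. The brighter read between 2.39 and 2.79 in hydroxyurea and between 2.37 and 2.60 in saline embryos, and the dimmer between 0.62 and 0.87 against 0.32 and 0.75. The 95% interval of the brighter, 0.908- to 1.43-fold, has its upper end below the estimates for Rev1 and Ercc5, but it overlaps the interval of Ercc5 (1.38 to 2.53). Differences between genes were not tested.

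The arrays lay on 2 slides with 2 arrays of each group on each, scanned at different resolutions. On slide 1 and slide 2 the differences were 2.17 and 2.08 for Polk, 0.95 and 0.98 for Rev1 and 1.01 and 0.80 for Ercc5. With the slide as a block all 3 stayed called, with adjusted p-values of 0.0073, 0.025 and 0.044. All 10 genes kept the sign of their difference on both slides. No member was called on either slide alone, where 2 arrays stood against 2 and 59 features on slide 1 and 3 on slide 2 passed among all 23121.

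**Figure D3:**
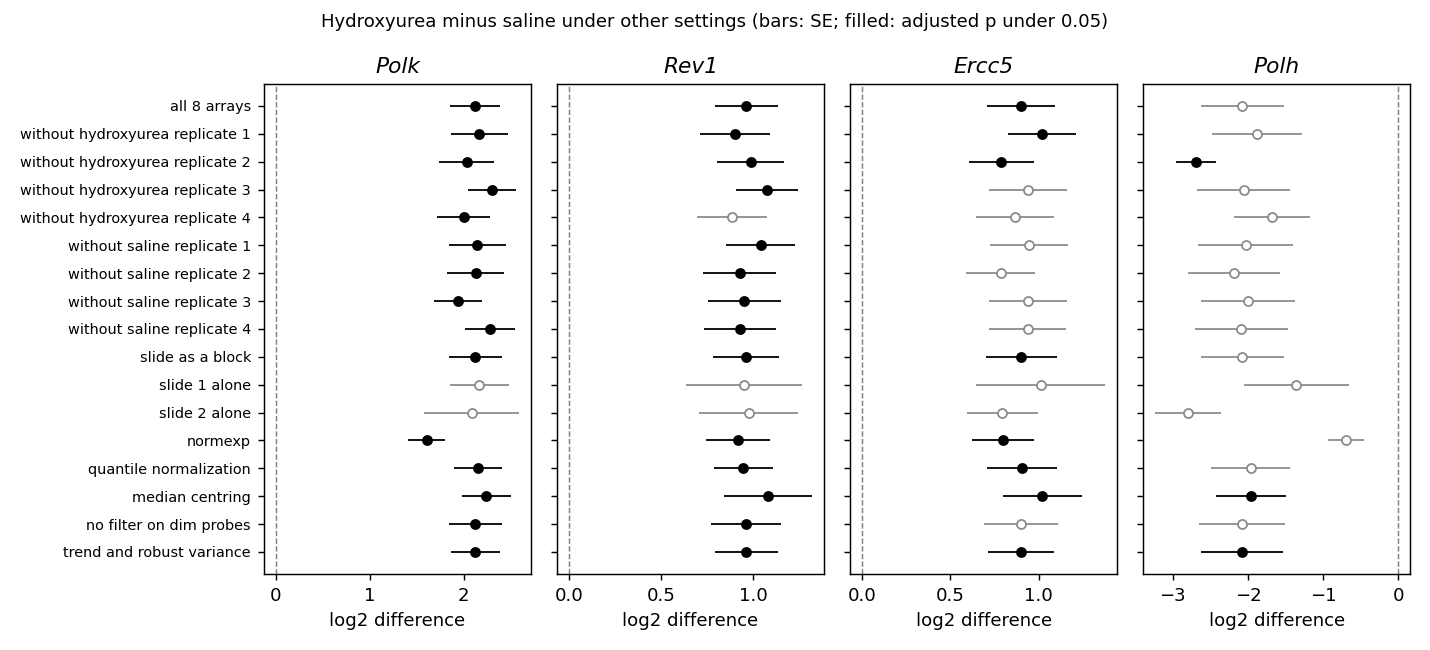
Log2 difference, hydroxyurea minus saline, of Polk, Rev1, Ercc5 and Polh with all 8 arrays, without each array, by slide and under other processing; bars are the SE and filled points have an adjusted p under 0.05. Polk passed without any single array, Ercc5 lost its call without 6 of the 8 arrays, and Polh passed without hydroxyurea replicate 2.

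Few other genes of these pathways passed the test. Of 21 other genes of translesion synthesis and damage tolerance, 20 were measured: 0 were higher by limma, 1 was lower and 19 did not pass. Before adjustment 5 of the 20 were higher and 3 lower at a p of 0.05. Of 34 other genes of nucleotide excision repair, all measured, 1 was higher, 0 were lower and 33 did not pass by limma. Before adjustment 7 of the 34 were higher and 2 lower. Of all features, 2.78% were called higher and 3.4% lower after adjustment, and 12.4% were higher and 12.4% lower before it. Of the 14631 named genes, 3.64% were called higher and 2.03% lower after adjustment. Before adjustment 2284 of these named genes were higher and 1236 lower. The counts rest on hydroxyurea 2: without that array 4 of the 20 and 8 of the 34 were called higher, beside 8.53% of all features, and 2 and 1 were called lower, beside 7.64% of all features. The median difference was 0.17 in both lists, against 0.04 over all features and 0.10 over the named genes.

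Wdr48, which encodes the cofactor of the deubiquitinase USP1 that strips ubiquitin from PCNA, was lower. It lay between 0.94 and 1.1 in hydroxyurea and between 1.48 and 1.86 in saline embryos, a difference of -0.65 ± 0.14 (SE, n = 4 per group, limma adjusted p = 0.029). The groups did not overlap, but the call held only without hydroxyurea 2 or saline 1 and was lost without any other array, as well as with median centring (adjusted p = 0.16) and with no filter on dim probes (0.097). Without each array the difference stayed between -0.705 and -0.579, and calls over all features also fell in the fits that lost it. Usp1 itself, named here after its values were seen, had a difference of 0.67 ± 0.21 in the other direction and did not pass (adjusted p = 0.088). It passed in 3 of 9 other ways of processing: normexp (adjusted p = 0.039), quantile normalization (0.039) and a variance trend (0.049). In the rest it did not (adjusted p up to 0.20). Without hydroxyurea 2 it passed, at 0.86 (0.010), but without any other single array it did not (up to 0.21).

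Gadd45a, a stress-induced p53 target linked to nucleotide excision repair, was higher. It lay between 0.98 and 1.59 in hydroxyurea and between 0.44 and 0.60 in saline embryos, a 1.76-fold rise (0.82 ± 0.16, adjusted p = 0.020). Its call held only without hydroxyurea 2 or hydroxyurea 3, and was lost without any other array (adjusted p up to 0.068) and with no filter on dim probes (0.069). Without each array its difference stayed between 0.73 and 0.93, and calls over all features also fell in the fits that lost it. Pcna, the clamp that RAD18 marks, also named after its values were seen, had a ratio of 1.28-fold and did not pass (adjusted p = 0.25). Cdk7, a kinase gene of the repair and transcription factor TFIIH, is named, likewise after its values were seen, because its probes disagreed: 0.58 for the brighter, which did not pass (adjusted p = 0.091), and -1.67 for the other, which passed among all probes (adjusted p = 0.0079). That other probe is in the authors' deposited table, as are the probes of Wdr48 and Gadd45a.

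**Figure D4:**
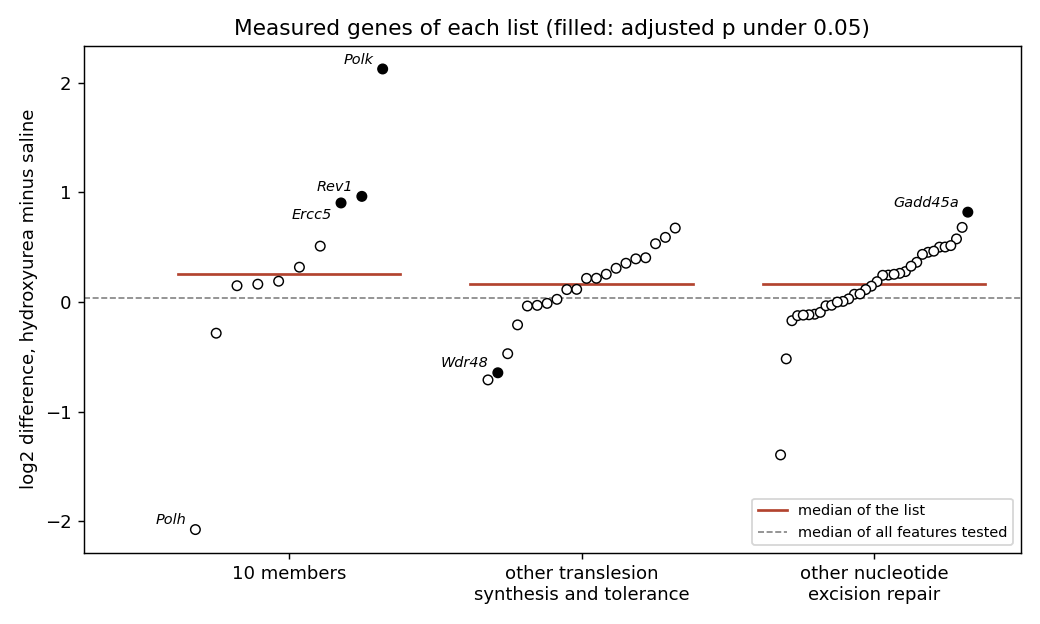
Log2 difference, hydroxyurea minus saline, of the 10 members, 20 other genes of translesion synthesis and tolerance and 34 other genes of nucleotide excision repair; filled points have an adjusted p under 0.05, red lines are list medians and the dashed line is the median of all features. Polk at 2.13 and Polh at -2.08 are the extremes, and the list medians lie between 0.17 and 0.25.

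Between 48.7% and 62.3% of spots per array were well above background, lowest on hydroxyurea 3. Markers of neural tube, heart, paraxial mesoderm and primitive erythroid cells, 17 in all, were measured, and 0 passed the test (limma, with 1 higher and 3 lower at an unadjusted p of 0.05). Of the 11 measured markers of tissue around the embryo 0 passed (1 higher at an unadjusted p of 0.05). The differences were 1.31 and 2.06 for the 2 trophoblast markers and 1.35 and 3.88 for the 2 decidua markers. Those of the 7 yolk sac endoderm markers lay between -1.44 and -0.51, all below 0. Of 3 decidua markers, Prl8a2 and Pgr were measured and Prl3c1 was above background on no array. Prl8a2 was above background on at most 3 hydroxyurea and 2 saline arrays, and Pgr on at most 3 and 1, so some of their signals are only bounds. The log2 of their summed level was -2.89, 2.41, 6.03 and -3.78 on hydroxyurea arrays 1 to 4, against -5.74, -2.78, -1.91 and -4.31 on saline arrays 1 to 4, so hydroxyurea 2 and 3 stood apart. Of 4 trophoblast markers 2 were measured, and Tpbpa was above background on no array. The log2 summed level of the 2 was 4.57, 4.35, 3.13 and 5.15 on hydroxyurea arrays 1 to 4, against 2.68, 1.0, 2.49 and 5.03 on saline arrays 1 to 4. Saline 1, 2 and 3 thus lay below all hydroxyurea arrays. The log2 summed level of the 7 yolk sac endoderm markers was 4.01 to 6.45 in hydroxyurea and 4.25 to 7.99 in saline embryos. The part of these markers in the results was not tested beyond leaving arrays out. Leaving out hydroxyurea 2 and 3 keeps hydroxyurea 1 and 4, which had the highest trophoblast levels of their group. With hydroxyurea 2 and 3 both left out, a choice made after the data were seen, the differences were 2.26 for Polk (adjusted p = 0.0060), 1.17 for Rev1 (0.0075), 0.79 for Ercc5, which then missed the threshold (0.052), and -2.97 for Polh, which then passed (0.00095). Of the 2 hydroxyurea arrays left, Polh was not well above background on hydroxyurea 4, so that its difference there rests on a level that is only a bound.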

How the data were processed

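The signal used was the processed intensity of each spot in the scanner files deposited by the authors. It was background-corrected and processed by Agilent Feature Extraction 11.5.1.1, per the submitters' processing notes. The files also hold the median signal of each spot and of its background. A deposited table gives the authors' log2 values for 1346 probes, which have a median near 0 for every probe. How these were normalized and selected is not given in the sources used here.

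Control spots were left out, as were outliers among the other spots (151 to 315 outliers per array). Spots of a probe were averaged, and log2 signals were set relative to each array's 75th percentile. A probe was kept when well above background on at least 4 arrays. Where a gene had several kept probes, the brightest on average was used. The 2 groups were compared with limma 3.58.1 in R 4.3.3, with p-values adjusted over all 23121 features by the Benjamini-Hochberg method. The fit was tested on simulated data. The number of arrays limits the precision.

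The members and lists were chosen with earlier results of these data known. All 10 members are named, and of each wider list up to 4 genes that passed, by lowest p. Normexp used the median spot signals, as the files give no mean. The other alternatives were quantile normalization, median centring, other filters and probe rules, the slide, a variance trend and leaving out arrays.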

Additional observations from a re-analysis of the deposited data

Results flagged for a closer look

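Within 26 sets of 4 arrays (each of the 13 probes in each group), 4 arrays lay apart from the other 3 of their group by Dixon's 95% critical value, which chance alone exceeds in about 5% of sets. Ercc5 read -0.37 on saline 2, against 0.09 to 0.11 on the other saline arrays, and without that array its rise missed the threshold (limma adjusted p = 0.073). Xpc read 1.69 on saline 1, against 1.34 to 1.36 on the other saline arrays. The brighter Xpa probe read 2.39 on hydroxyurea 2, against 2.74 to 2.79 on the other hydroxyurea arrays. The dimmer Polk probe read -4.63 on saline 3, where it was not well above background, against -3.45 to -3.41 on the other saline arrays.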

How the results depend on the processing

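The median difference of the 10 genes stayed between 0.20 and 0.37 under the alternatives. The count of members called higher was 0 on slide 1 alone and 0 on slide 2 alone, and 1 to 3 without each array. The count called lower was 1 with median centring, with a variance trend and without hydroxyurea 2 and 3 together, and 0 to 1 without each array. Among the other translesion synthesis genes, 1 was higher with normexp, quantile normalization or a variance trend, 3 without hydroxyurea 2 and 3, and 0 to 4 without each array (4 without hydroxyurea 2), while 0 were lower with median centring, no filter or either slide, 2 without hydroxyurea 2 and 3, and 0 to 2 without each array. Among the other excision repair genes, 2 were higher with normexp, quantile normalization or a filter on all 8 arrays, 3 with a variance trend, 5 without hydroxyurea 2 and 3, 0 with no filter or either slide, and 0 to 8 without each array (8 without hydroxyurea 2), while 1 was lower without hydroxyurea 2 and 3, and 0 to 1 without each array. The share of all features called higher was 7.38% without hydroxyurea 2 and 3, 8.53% without hydroxyurea 2 and 2.78% with all arrays. Cdk7 turned to -0.55 with the mean of its probes, which disagree. Calls over all features numbered 1429, but 615 with no filter, 59 and 3 on slides 1 and 2, 3787 without hydroxyurea 2 and 3, and 524 (without hydroxyurea 4) to 3739 (without hydroxyurea 2) without each array. The cause was not tested. Median centring moved the median of all features to 0.16. No paired analysis was possible because the labels give the samples no replicate numbers.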
